A study of Mus musculus with 18 samples.

Results

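The p53 target genes followed here are 38 mouse genes that belong to the p53 pathway, among them Trp53, which encodes p53, and genes that p53 switches on or that control it. They were taken as a written list of pathway genes, chosen with earlier results of these data known. All 38 symbols were found in every count table, out of 22852 symbols in all, and 36 of them had enough counts to be tested, out of 11305 genes tested. RNA-Seq read pairs were counted per gene in 18 samples of bone marrow-derived macrophages (BMDMs), which are macrophages grown for 7 days from the marrow of female C57BL/6 mice in medium with L929-conditioned supernatant. There were 6 groups with 3 biological replicates each. Unstimulated BMDMs received nothing. LPS-primed BMDMs received lipopolysaccharide (LPS), a bacterial cell wall component that signals through TLR4, at 100 ng/ml for 24 h. LPS-tolerant BMDMs had the same priming and then fresh medium with LPS at 10 ng/ml for 3 h. LPS-stimulated BMDMs received a single dose of 10 ng/ml, for 3 h according to the time scheme of the study. LPS-primed and LPS-tolerant BMDMs were also prepared with 25 µM carboplatin, a platinum drug that crosslinks DNA, which the study's methods place 1 h before the priming dose. No group received carboplatin without LPS, so the drug could be compared only between LPS-treated groups. The age of the mice and whether the marrow of several animals was mixed are not given in the sources used here.

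p53 is a transcription factor that is kept low by MDM2, which marks it for degradation. DNA damage activates kinases that free p53 from MDM2, and p53 then raises genes for cell cycle arrest, apoptosis, DNA repair and metabolic adaptation, together with its own inhibitors, which form a feedback loop. Many of these genes answer to other signals as well, including NF-κB and stress kinases downstream of TLR4, so a change in one of them is not by itself a reading of p53 activity. The 38 genes were grouped by role. Trp53, Mdm2, Mdm4, Ppm1d and Ccng1 are p53 and its regulators. Cdkn1a, Ccng2, Btg2, Plk2, Plk3, Zmat3, Psrc1 and Sertad1 act on the cell cycle. Bax, Bbc3, Pmaip1, Apaf1, Aen, Perp, Pidd1, Ei24, Trp53inp1, Phlda3 and Triap1 act in or around mitochondrial apoptosis. Fas, Tnfrsf10b and Eda2r are death receptors or related receptors. Sesn1, Sesn2, Ddit4, Tigar, Dram1, Gdf15 and Ephx1 act in metabolism and stress, and Rrm2b, Polk, Rps27l and Pml in DNA repair, nucleotide supply, the ribosome and nuclear bodies.

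The p53 response element is built of 2 decamers, and the p53 consensus was searched on both strands, without a gap between the decamers, within 5 kb on each side of the canonical start site of GENCODE on GRCm39. At most 1 mismatch was allowed, outside the central C and G of each decamer. At least 1 match was found near 8 of the 38 genes (21.1%) and near 217 of 11022 tested genes with a position (1.97%). Matches without a mismatch were found near 2 of the 38 genes (5.26%) and 31 of the 11022 (0.281%). The sites of genes on which the carboplatin results turn, and the sites without a mismatch, are printed 5′ to 3′ on the strand of the gene, with the consensus in capitals, negative distances upstream of the start site, and 5 bases on each side in lower case.
Cdkn1a, chr17:29309902-29309921, at -2827 bases from the start site, 1 mismatch: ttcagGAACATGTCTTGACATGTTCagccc
Ccng1, chr11:40646289-40646308, at -160 bases from the start site, 1 mismatch: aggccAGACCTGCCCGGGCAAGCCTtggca
Ccng1, chr11:40645763-40645782, intron, at 366 bases from the start site, 1 mismatch: ccggaACGCAAGCCCGGGCTAGTCTgcgcc
Psrc1, chr3:108291972-108291991, intron, at 861 bases from the start site, 1 mismatch: tccctGGGCATGTTGAGGCATGCCCtgcaa
Rps27l, chr9:66853578-66853597, intron, at 247 bases from the start site, 1 mismatch: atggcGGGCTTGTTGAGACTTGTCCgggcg
Ddit4, chr10:59784324-59784343, outside the gene, at 3329 bases from the start site, 0 mismatches: actccAGACTTGCCTGGACTAGTCTagatg
Ddit4, chr10:59792283-59792302, at -4630 bases from the start site, 0 mismatches: agggaAAGCATGTCCAGGCTAGCCCccatg
Zmat3, chr3:32418480-32418499, exon, at 1419 bases from the start site, 0 mismatches: gtgagAAACAAGCCCAGGCATGTCTtggga
The other matches lay near Gdf15, Tigar and Zmat3, and this search found none near Mdm2, Bbc3 or Aen. A match describes letters, and binding of p53 was not measured in these samples.

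Depth on genes ranged from 6869667 to 14708099 read pairs, and the median sample had 8986463. All 6 macrophage markers were detected in every group, and their summed normalized counts were 111700 to 134200 in LPS-stimulated BMDMs and 145900 to 278900 elsewhere. T and NK cell markers stood at 0 in every sample. The B cell list summed to 266.7 to 1560 in unstimulated BMDMs, where Ighm made up most of it, 71.6 to 271.1 in LPS-stimulated BMDMs and at most 12.7 in the other groups. The fibroblast list summed to 0.820 to 6.36 in unstimulated BMDMs and 18.4 to 84.4 elsewhere, and the neutrophil, erythroid and dendritic cell lists to at most 53.3, 6.91 and 11.8. The part of these cells in the results was not tested. In bulk samples, fewer cells that express a gene and less RNA per cell cannot be told apart.

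The abundance of the 38 genes was compared per length, as normalized counts per kb of the canonical transcript. Rps27l, a paralog of a ribosomal protein, and Bax, the pore former of mitochondrial apoptosis, ranked 1 and 2 in every group but LPS-stimulated BMDMs. In unstimulated BMDMs these levels were 1286 ± 129.2 for Rps27l and 1190 ± 249 for Bax (SD, n = 3), which differed by less than the spread between replicates, followed by Sesn1 at 616 ± 131 and Mdm2 at 449 ± 34.0. LPS-stimulated BMDMs had Mdm2 at rank 1, with a level of 3821 ± 296, above Rps27l at 1617 ± 185. The bottom of the order was fixed by 2 genes that were not tested. Eda2r, a receptor of the TNF receptor family, had at most 2 counts in any sample. Perp, a membrane protein of cell junctions, had 1 count in 1 LPS-primed sample and 0 in the others. A count of 0 allows up to 3, so low expression of Perp may be missed at this depth. Eda2r, with 1 or 2 counts in each LPS-stimulated sample, was detected but too low to test.

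The comparisons with unstimulated BMDMs ask what LPS does to the p53 pathway genes in the absence of the drug. A single LPS dose changed the p53 genes in both directions. Genes were called at an adjusted p under 0.05 in edgeR, with no limit on the fold change. After the single dose, 25 of the 36 genes were called (69.4%), 12 higher and 13 lower, where 51.2% of all tested genes were called, 24.3% higher and 26.9% lower. Their median log2FC was -0.405 and that of all tested genes -0.094. After 24 h of priming, 12 of 36 were called (33.3%), 5 higher and 7 lower, against a background of 25.2% (12.1% higher and 13.1% lower), with a median of -0.064 against -0.024 for all genes. Both comparisons share the unstimulated samples, and each of the LPS-stimulated, LPS-primed and LPS-tolerant groups also enters more than 1 LPS comparison, so these results are not independent. The plot of 36 genes over the LPS comparisons gives each value. With the replicate number as a block, all of these calls remained and 29 genes were called after the single dose and 16 after priming, where the block called 63.2% and 38.6% of all genes. Under the study's own limits for LPS, which also ask for a log2FC past 2, 9 and 7 genes passed, against 12% and 7.47% of all genes.

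**Figure D1:**
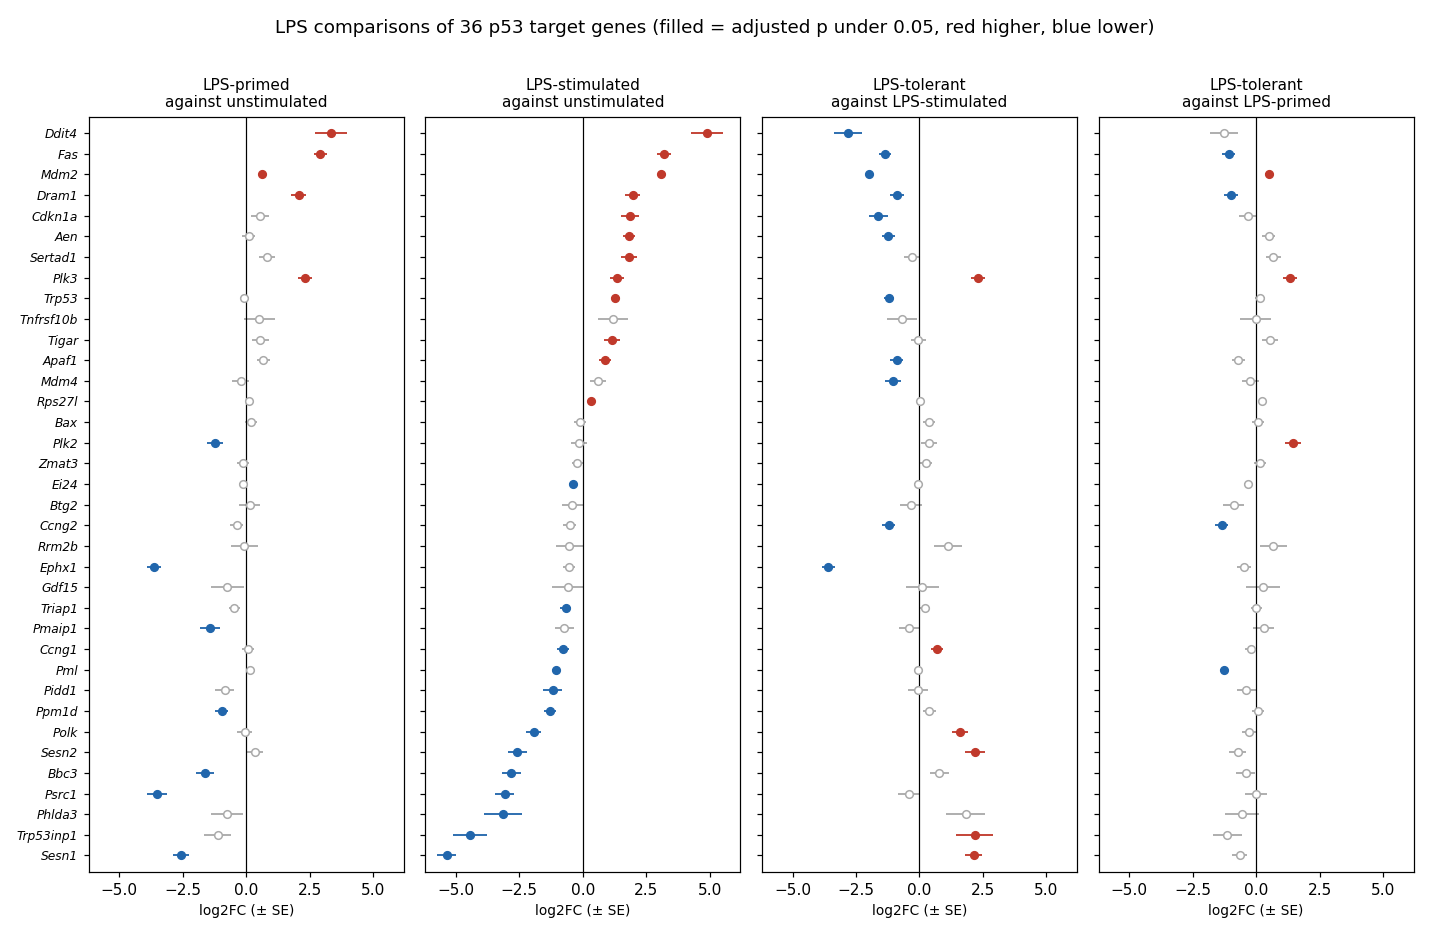
Each row is 1 of the 36 tested genes, ordered by its log2FC in LPS-stimulated against unstimulated BMDMs, and each panel is 1 comparison with the log2FC on the horizontal axis and its SE as a bar. Filled points had an adjusted p under 0.05, red when higher and blue when lower. In LPS-stimulated against unstimulated BMDMs, 12 filled points are red and 13 blue, and in LPS-tolerant against LPS-primed BMDMs 3 are red and 4 blue.

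Among p53 and its regulators, Mdm2, the ubiquitin ligase that degrades p53, gave the clearest order of groups. Its normalized counts in replicates 1, 2 and 3 were 1513, 1327 and 1334 in unstimulated BMDMs, 12770, 11820 and 10930 after the single dose, 1962, 1945 and 2504 after priming and 2884, 2909 and 3213 in LPS-tolerant BMDMs. No sample of a group overlapped with another, so that unstimulated BMDMs were lowest, LPS-primed and LPS-tolerant BMDMs lay between, and LPS-stimulated BMDMs were highest. Mdm2 rose after the single dose (log2FC = 3.09 ± 0.14, adjusted p = 3.31e-11; SE after each ± for log2FC) and less after priming (log2FC = 0.62 ± 0.13, adjusted p = 0.00157). It was lower in LPS-tolerant BMDMs than in LPS-stimulated ones (log2FC = -1.98 ± 0.13, adjusted p = 9.26e-09). Against LPS-primed BMDMs it was higher (log2FC = 0.49 ± 0.13, adjusted p = 0.0295), a call that was lost when any 1 of 5 of the 6 samples was left out, with an adjusted p of 0.107 without LPS-primed replicate 1, 0.119 without LPS-primed replicate 2, and 0.0552, 0.0605 and 0.116 without LPS-tolerant replicates 1, 2 and 3, and with library size alone as the scaling (adjusted p = 0.0831).

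Trp53 itself was called after the single dose and not after priming. It had 766, 559.8 and 463 normalized counts in unstimulated, 1577, 1211 and 1554 in LPS-stimulated, 573, 590.2 and 541 in LPS-primed and 666, 504 and 713 in LPS-tolerant BMDMs. All 3 LPS-stimulated samples lay above every sample of the other groups. Trp53 rose after the single dose (log2FC = 1.28 ± 0.19, adjusted p = 2.88e-05) and was lower in LPS-tolerant BMDMs than in LPS-stimulated ones (log2FC = -1.21 ± 0.19, adjusted p = 9.92e-05). After priming its log2FC was -0.069 ± 0.19 (adjusted p = 0.834). Exons of Trp53 overlap those of Wrap53 on the other strand, and whether counting used the strand is not stated. Ppm1d, a phosphatase that switches off p53 signalling, fell after the single dose (log2FC = -1.28 ± 0.24, adjusted p = 0.000321) and after priming (log2FC = -0.97 ± 0.24, adjusted p = 0.00633), from 204 to 262 normalized counts in unstimulated BMDMs to between 64.4 and 149 in the other 2 groups. Ccng1, a cyclin that works with a phosphatase on MDM2, fell after the single dose (log2FC = -0.80 ± 0.23, adjusted p = 0.00954). It was higher again in LPS-tolerant BMDMs than in LPS-stimulated ones (log2FC = 0.68 ± 0.23, adjusted p = 0.0332), a call lost without LPS-tolerant replicate 2 or 3 (adjusted p = 0.0787 and 0.0975) or LPS-stimulated replicate 1 or 3 (adjusted p = 0.0944 and 0.112). Mdm4, the partner of MDM2, was lower in LPS-tolerant BMDMs than in LPS-stimulated ones (log2FC = -1.04 ± 0.33, adjusted p = 0.0209), and this call was lost without LPS-tolerant replicate 1 (adjusted p = 0.0867) or LPS-stimulated replicate 2 (adjusted p = 0.0931). With the replicate block Mdm4 was also called after the single dose (log2FC = 0.62, adjusted p = 0.00385).

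**Figure D2:**
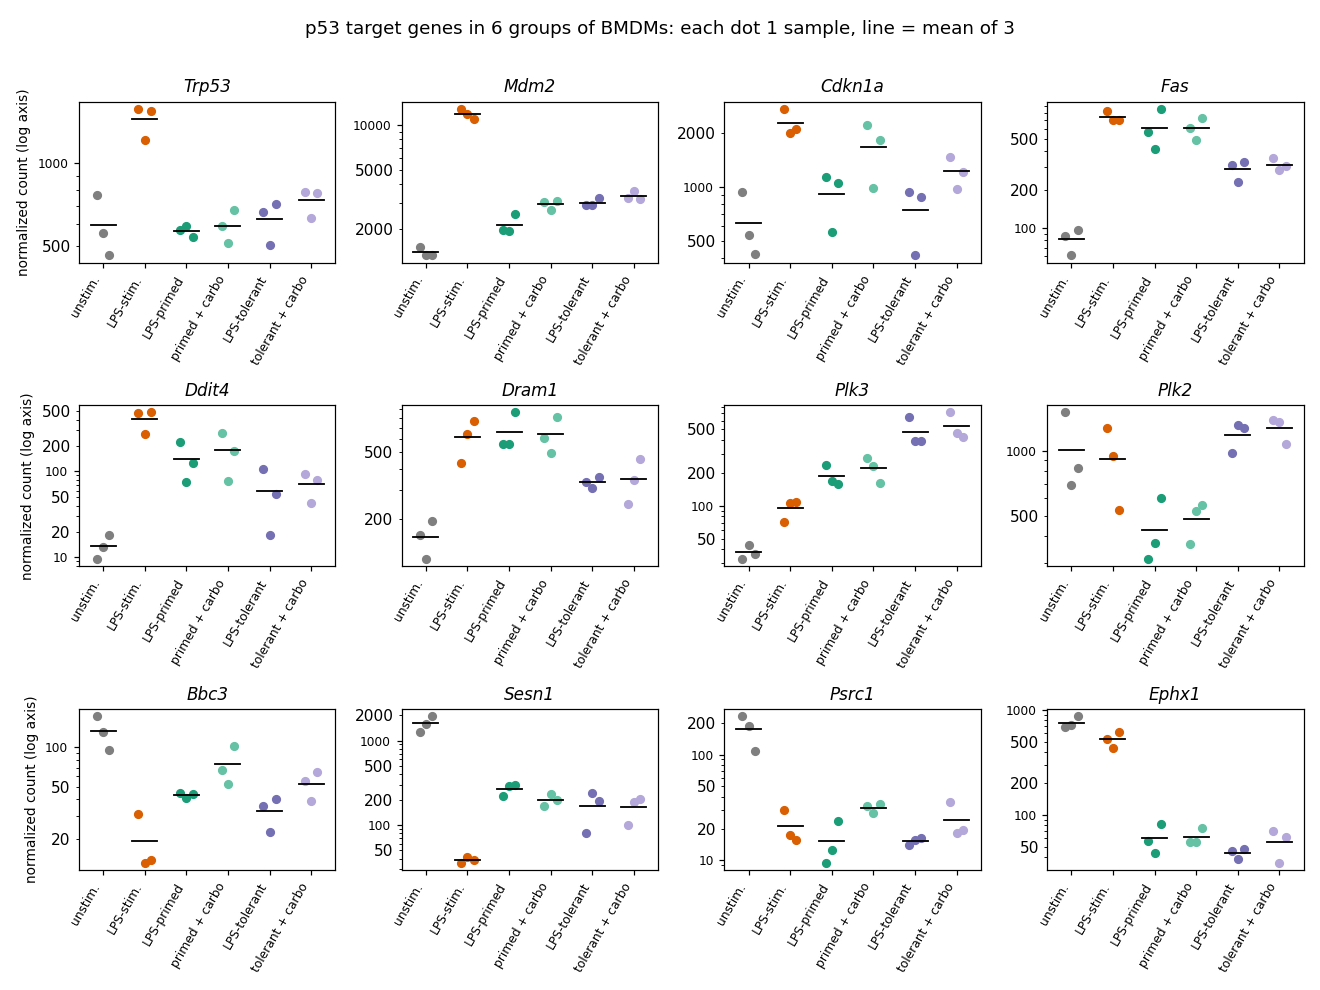
Normalized counts on a log axis for 12 of the genes in the 6 groups, with each dot 1 sample (replicates 1 to 3 from left to right) and a line at the mean of 3. Mdm2 and Trp53 are highest in the 3 LPS-stimulated samples, where Sesn1 and Bbc3 have their lowest means, and Plk3 is highest in the 6 LPS-tolerant samples with or without carboplatin.

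Of the cell cycle genes, 4 of 8 were called after the single dose and 3 of 8 after priming, where 51.2% and 25.2% of all genes were. Cdkn1a, which encodes the cyclin-dependent kinase inhibitor p21, had 930.1, 534 and 421 normalized counts in unstimulated, 2708, 1993 and 2102 in LPS-stimulated, 1134, 558 and 1047 in LPS-primed and 934, 413 and 869 in LPS-tolerant BMDMs. The LPS-stimulated samples lay above the other samples without carboplatin, whose groups overlapped, and replicate 2 was the lowest of its group in LPS-primed and LPS-tolerant BMDMs. Cdkn1a rose after the single dose (log2FC = 1.85 ± 0.37, adjusted p = 0.000488) and was lower in LPS-tolerant BMDMs than in LPS-stimulated ones (log2FC = -1.62 ± 0.36, adjusted p = 0.00226). After priming its log2FC was 0.54 ± 0.36 (adjusted p = 0.31, with the block 0.0528, and with DESeq2 and the block 0.0405), and between LPS-tolerant and LPS-primed BMDMs -0.31 ± 0.36 (adjusted p = 0.69). Psrc1, a microtubule protein of the mitotic spindle, took the opposite course. It fell from 231, 188 and 107 normalized counts in unstimulated BMDMs to 29.8, 17.3 and 15.8 after the single dose (log2FC = -3.08 ± 0.38, adjusted p = 4.47e-06) and 9.53, 12.5 and 23.4 after priming (log2FC = -3.51 ± 0.39, adjusted p = 4.05e-06). LPS-tolerant BMDMs had 13.9, 15.5 and 16.5, within the range of the LPS-primed samples.

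The polo-like kinases Plk2 and Plk3 are stress-responsive relatives of the mitotic kinase PLK1. Plk3 had 32.5, 43.4 and 36.4 normalized counts in unstimulated, 71.6, 105 and 108 in LPS-stimulated, 235, 169.8 and 158 in LPS-primed and 643, 395 and 393 in LPS-tolerant BMDMs. These 4 groups did not overlap and rose in that order. Plk3 was called in all 4 LPS comparisons, at a log2FC of 1.34 ± 0.29 after the single dose, 2.32 ± 0.29 after priming, 2.32 ± 0.28 in LPS-tolerant against LPS-stimulated and 1.34 ± 0.27 in LPS-tolerant against LPS-primed BMDMs (adjusted p = 0.00105, 1.42e-05, 6.87e-06 and 0.00568). Plk2 had 1501, 693 and 833 in unstimulated, 1270, 940.2 and 530.4 in LPS-stimulated, 314, 374 and 603 in LPS-primed and 978, 1312 and 1266 in LPS-tolerant BMDMs. The LPS-primed samples lay below the unstimulated and LPS-tolerant ones and overlapped with the LPS-stimulated ones. It fell after priming (log2FC = -1.23 ± 0.32, adjusted p = 0.00947) and was higher in LPS-tolerant BMDMs than in LPS-primed ones (log2FC = 1.46 ± 0.33, adjusted p = 0.0124). The first call was lost without unstimulated replicate 1 (adjusted p = 0.0723) or LPS-primed replicate 1 (adjusted p = 0.0503), and the second without LPS-primed replicate 1 or 2 (adjusted p = 0.0555 and 0.0582).

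Ccng2, an unusual cyclin linked to arrest, was lowest in LPS-tolerant BMDMs among the groups without carboplatin. It had 411, 656 and 754 normalized counts in unstimulated, 439, 394 and 434 in LPS-stimulated, 374, 374 and 651 in LPS-primed and 138, 208 and 198 in LPS-tolerant BMDMs. The LPS-tolerant samples did not overlap with any other of these groups, and Ccng2 was lower than in LPS-primed (log2FC = -1.36 ± 0.26, adjusted p = 0.00498) and LPS-stimulated BMDMs (log2FC = -1.21 ± 0.26, adjusted p = 0.00165). With the replicate block it was also lower after the single dose (log2FC = -0.48, adjusted p = 0.022). Sertad1, a regulator of CDK4, rose after the single dose (log2FC = 1.82 ± 0.32, adjusted p = 0.000145). After priming it was called with the block (log2FC = 0.83, adjusted p = 0.0172) and not in the main fit, which left the block out (adjusted p = 0.0606). Without the block it was also called with DESeq2, with the compared samples alone and without a filter on low counts (adjusted p = 0.0413, 0.0306 and 0.0496). Btg2, an antiproliferative cofactor, and Zmat3, an RNA-binding zinc finger protein, were called in none of the 4 LPS comparisons without the block. Zmat3 stayed between 63.0 and 100.9 normalized counts in these 4 groups. Btg2 was lower in LPS-tolerant BMDMs than in LPS-primed ones with the block (log2FC = -0.88, adjusted p = 0.0393).

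Of the genes of mitochondrial apoptosis, 8 of 10 tested were called after the single dose, 2 higher and 6 lower, where 24.3% of all genes were higher and 26.9% lower. Bbc3, which encodes the BH3-only protein PUMA, had 173, 130.3 and 95.4 normalized counts in unstimulated, 31, 13.2 and 13.8 in LPS-stimulated, 44.5, 41 and 44.1 in LPS-primed and 35.5, 22.4 and 40.1 in LPS-tolerant BMDMs. Without carboplatin, every LPS-treated sample lay below every unstimulated one. Bbc3 fell after the single dose (log2FC = -2.81 ± 0.38, adjusted p = 1.08e-05) and after priming (log2FC = -1.62 ± 0.35, adjusted p = 0.00232). Pmaip1, which encodes the BH3-only protein NOXA, had 49.7, 45.1 and 45.4 in unstimulated and 13.8, 18.2 and 19.7 in LPS-primed BMDMs. It fell after priming (log2FC = -1.43 ± 0.40, adjusted p = 0.0124), a call lost without LPS-primed replicate 1 (adjusted p = 0.0565). LPS-stimulated and LPS-tolerant BMDMs had 31, 20.8 and 33.5 and 12.7, 19 and 31.9, and its log2FC after the single dose was -0.72 ± 0.38 (adjusted p = 0.12).

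Trp53inp1, a stress protein of autophagy and apoptosis, and Phlda3, which restrains AKT, had their lowest means in LPS-stimulated BMDMs. Trp53inp1 had 38.2, 137 and 118 normalized counts in unstimulated, 1.19, 6.23 and 4.93 in LPS-stimulated, 24.3, 31.9 and 76.9 in LPS-primed and 10.1, 18.1 and 31.9 in LPS-tolerant BMDMs. The LPS-stimulated samples, at 1 to 9 raw counts, lay below all others, and the fall against unstimulated BMDMs was the second largest of the list (log2FC = -4.43 ± 0.68, adjusted p = 3.98e-05). LPS-tolerant BMDMs had more Trp53inp1 than LPS-stimulated ones (log2FC = 2.17 ± 0.71, adjusted p = 0.0253), a call lost without LPS-tolerant replicate 3 (adjusted p = 0.121) or LPS-stimulated replicate 1 or 3 (adjusted p = 0.078 and 0.0583). Phlda3 had 98.5, 68 and 27.3 in unstimulated, 17.9, 2.77 and 2.96 in LPS-stimulated, 50.8, 20.5 and 42.2 in LPS-primed and 43, 6.04 and 29.9 in LPS-tolerant BMDMs. It fell after the single dose (log2FC = -3.14 ± 0.75, adjusted p = 0.0022). Its LPS-tolerant and LPS-stimulated samples overlapped, and the comparison was called with the block (log2FC = 1.78, adjusted p = 0.0289) and not in the main fit (adjusted p = 0.0819). DESeq2 without the block called it (adjusted p = 0.0428), as did edgeR without LPS-tolerant replicate 2 or LPS-stimulated replicate 1 (adjusted p = 0.0241 and 0.0138). With the block Trp53inp1 was also lower after priming (log2FC = -1.11, adjusted p = 0.0113) and lower in LPS-tolerant BMDMs than in LPS-primed ones (log2FC = -1.15, adjusted p = 0.0378).

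The genes of this group that rose after the single dose were Aen and Apaf1. Aen, a nuclease of apoptotic cells, went from 56.4 to 123 normalized counts in unstimulated BMDMs to between 254 and 378 (log2FC = 1.82 ± 0.25, adjusted p = 1.5e-05) and was lower again in LPS-tolerant BMDMs than in LPS-stimulated ones (log2FC = -1.22 ± 0.25, adjusted p = 0.00096). Apaf1, the scaffold of the apoptosome, rose after the single dose (log2FC = 0.87 ± 0.25, adjusted p = 0.00723), a call lost with library size alone as the scaling (adjusted p = 0.0865). It was lower in LPS-tolerant BMDMs than in LPS-stimulated ones (log2FC = -0.90 ± 0.25, adjusted p = 0.00927), but not without LPS-stimulated replicate 2 (adjusted p = 0.0557). With the block, Apaf1 was also higher after priming (log2FC = 0.68, adjusted p = 0.00414) and lower in LPS-tolerant BMDMs than in LPS-primed ones (log2FC = -0.67, adjusted p = 0.0121). The rise after priming was not called in the main fit (adjusted p = 0.0521). Without the block it was called with RLE size factors, without a filter on low counts and with DESeq2 (adjusted p = 0.046, 0.045 and 0.0319). Triap1, an inhibitor of apoptosis in mitochondria, fell after the single dose (log2FC = -0.68 ± 0.20, adjusted p = 0.0105), and with the block after priming (log2FC = -0.47, adjusted p = 0.0455). Pidd1, a death domain protein, and Ei24, an autophagy protein of the endoplasmic reticulum, also fell after the single dose, with a log2FC of -1.19 ± 0.37 and -0.40 ± 0.15 (adjusted p = 0.0134 and 0.0291). The call of Pidd1 was lost without unstimulated replicate 1 or LPS-stimulated replicate 2 (adjusted p = 0.0966 and 0.0618), and that of Ei24 without unstimulated replicate 2 or LPS-stimulated replicate 2 or 3 (adjusted p = 0.2, 0.092 and 0.0832). Bax stayed between 874 and 1826 normalized counts in the 4 groups and was called only in LPS-tolerant against LPS-stimulated BMDMs with the block (log2FC = 0.37, adjusted p = 0.0109).

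Fas, the death receptor that starts apoptosis at the cell surface, was among the most strongly raised genes of the list. It had 86, 60.6 and 96.3 normalized counts in unstimulated, 823, 700.2 and 705 in LPS-stimulated, 566, 414 and 859 in LPS-primed and 310.2, 227 and 330.5 in LPS-tolerant BMDMs. Every LPS-treated sample lay above the unstimulated ones, and the LPS-tolerant samples lay below the LPS-primed and LPS-stimulated ones. Fas rose after the single dose (log2FC = 3.20 ± 0.26, adjusted p = 4.56e-08) and after priming (log2FC = 2.92 ± 0.26, adjusted p = 3.07e-07). LPS-tolerant BMDMs had less Fas than LPS-stimulated (log2FC = -1.36 ± 0.24, adjusted p = 0.000331) and LPS-primed BMDMs (log2FC = -1.09 ± 0.24, adjusted p = 0.0124). The last call was lost without LPS-primed replicate 3 (adjusted p = 0.0884) or LPS-tolerant replicate 2 (adjusted p = 0.0633). Tnfrsf10b, the mouse receptor for TRAIL, had 6.33 to 33.4 normalized counts in the 4 groups. After the single dose it was called with the block (log2FC = 1.14, adjusted p = 0.049) and with the compared samples alone (log2FC = 1.25, adjusted p = 0.0469). The main fit did not call it (adjusted p = 0.108).

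Among the metabolic and stress genes, the inhibitors of mTORC1 moved apart. Ddit4, which encodes REDD1, had 9.56, 13.1 and 18.2 normalized counts in unstimulated, 477, 274 and 485 in LPS-stimulated, 218, 75.2 and 125 in LPS-primed and 106, 18.1 and 54.6 in LPS-tolerant BMDMs. The unstimulated and LPS-stimulated samples did not overlap with each other or with the LPS-primed ones. Ddit4 rose after the single dose (log2FC = 4.90 ± 0.63, adjusted p = 7.3e-06) and after priming (log2FC = 3.34 ± 0.62, adjusted p = 0.000649), the largest rise of the list in both comparisons, and was lower in LPS-tolerant BMDMs than in LPS-stimulated ones (log2FC = -2.81 ± 0.55, adjusted p = 0.000783). Sesn1 and Sesn2 encode sestrins, which also restrain mTORC1. Sesn1 had 1267, 1590 and 1948 in unstimulated, 35.8, 41.5 and 38.5 in LPS-stimulated, 223, 289 and 294 in LPS-primed and 79.8, 239 and 192 in LPS-tolerant BMDMs. The samples of all 3 LPS groups lay below the unstimulated ones, with the LPS-stimulated samples lowest. It fell after the single dose (log2FC = -5.36 ± 0.37, adjusted p = 5.35e-09), the largest fall of the list, and after priming (log2FC = -2.57 ± 0.32, adjusted p = 1.05e-05), and was higher in LPS-tolerant BMDMs than in LPS-stimulated ones (log2FC = 2.14 ± 0.34, adjusted p = 0.000117). Exons of Sesn1 overlap those of Cep57l1 on the other strand over 10.9% of their length.

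Sesn2 had 122, 136 and 111 normalized counts in unstimulated, 26.2, 22.1 and 12.8 in LPS-stimulated, 168, 131 and 164 in LPS-primed and 151, 44 and 87.5 in LPS-tolerant BMDMs. The LPS-stimulated samples stood below all others. Sesn2 fell after the single dose (log2FC = -2.59 ± 0.37, adjusted p = 2.3e-05), was higher in LPS-tolerant BMDMs than in LPS-stimulated ones (log2FC = 2.19 ± 0.38, adjusted p = 0.000234), and did not pass after priming (log2FC = 0.33 ± 0.33, adjusted p = 0.525). With the block, Ddit4, Sesn1 and Sesn2 were each lower in LPS-tolerant BMDMs than in LPS-primed ones, with a log2FC of -1.31, -0.71 and -0.80 (adjusted p = 0.00538, 0.0173 and 0.0487), where the adjusted p values without it were 0.192, 0.237 and 0.219.

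Dram1, a lysosomal protein of autophagy, had 162, 116 and 195 normalized counts in unstimulated, 432, 638 and 770.0 in LPS-stimulated, 559, 559 and 859.9 in LPS-primed and 332, 307 and 355 in LPS-tolerant BMDMs. LPS-treated samples lay above the unstimulated ones, and LPS-tolerant samples below the other LPS-treated ones. It rose after the single dose (log2FC = 1.96 ± 0.28, adjusted p = 1.95e-05) and priming (log2FC = 2.06 ± 0.28, adjusted p = 3.05e-05), and was lower in LPS-tolerant BMDMs than in LPS-stimulated (log2FC = -0.89 ± 0.27, adjusted p = 0.0159) and LPS-primed BMDMs (log2FC = -0.99 ± 0.27, adjusted p = 0.0355). The call against LPS-stimulated BMDMs was lost without LPS-tolerant replicate 2 (adjusted p = 0.0546) or LPS-stimulated replicate 3 (adjusted p = 0.0849). That against LPS-primed BMDMs was lost without LPS-primed replicate 2 or 3 (adjusted p = 0.0514 and 0.172) or any LPS-tolerant replicate (adjusted p = 0.0892, 0.114 and 0.0885). Ephx1, the microsomal epoxide hydrolase, separated the groups by priming. It had 682, 720.4 and 872 in unstimulated, 533, 429.6 and 612 in LPS-stimulated, 57.1, 43.3 and 81.6 in LPS-primed and 45.6, 38 and 47.4 in LPS-tolerant BMDMs. The groups with priming did not overlap with those without. Ephx1 fell after priming (log2FC = -3.63 ± 0.27, adjusted p = 2.95e-08) and was lower in LPS-tolerant BMDMs than in LPS-stimulated ones (log2FC = -3.59 ± 0.27, adjusted p = 3.87e-08). After the single dose it was called with the block (log2FC = -0.54, adjusted p = 0.00397) and not in the main fit (adjusted p = 0.0662). Without the block, library size alone and a filter of at least 10 counts in every sample also called it (adjusted p = 0.00503 and 0.0481). Tigar, a phosphatase that slows glycolysis, rose after the single dose (log2FC = 1.14 ± 0.32, adjusted p = 0.00698). Gdf15, a stress cytokine, had 21.8 to 171 normalized counts in the 4 groups and was called in no LPS comparison with or without the block.

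In the last role group, Polk, a polymerase that copies past damaged bases, had 132, 157 and 271 normalized counts in unstimulated, 65.6, 34.6 and 47.3 in LPS-stimulated, 152, 149 and 235 in LPS-primed and 125, 155 and 165 in LPS-tolerant BMDMs. The 3 LPS-stimulated samples lay below all others. Polk fell after the single dose (log2FC = -1.94 ± 0.31, adjusted p = 7.18e-05) and was higher in LPS-tolerant BMDMs than in LPS-stimulated ones (log2FC = 1.61 ± 0.31, adjusted p = 0.000722). Pml, the organizer of PML nuclear bodies and an interferon target, had 692, 489 and 566 in unstimulated, 269.7, 304 and 259 in LPS-stimulated, 594, 754 and 586 in LPS-primed and 294, 237 and 272 in LPS-tolerant BMDMs. Unstimulated and LPS-primed BMDMs formed the high pair and LPS-stimulated and LPS-tolerant BMDMs the low pair, without overlap. Pml fell after the single dose (log2FC = -1.07 ± 0.16, adjusted p = 2.68e-05) and was lower in LPS-tolerant BMDMs than in LPS-primed ones (log2FC = -1.27 ± 0.16, adjusted p = 0.000148). Rps27l had a log2FC of 0.33 ± 0.13 after the single dose (adjusted p = 0.037). With library size alone as the scaling it was -0.006 (adjusted p = 0.969), where the median of all genes shifted by -0.337. The call was also lost without unstimulated replicate 2 or 3 (adjusted p = 0.115 and 0.0617) or LPS-stimulated replicate 1 or 3 (adjusted p = 0.142 and 0.0538). Rrm2b, a ribonucleotide reductase subunit, was higher in LPS-tolerant BMDMs than in LPS-stimulated ones with the block only (log2FC = 1.09, adjusted p = 0.00911).

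The study asks which genes respond less, or more, to LPS after priming. LPS-tolerant and LPS-stimulated BMDMs both ended with 3 h of LPS at 10 ng/ml. Between them, 17 of 36 p53 genes were called (47.2%), 6 higher and 11 lower in LPS-tolerant BMDMs, where 34.5% of all tested genes were called (16.2% higher and 18.3% lower), and the medians were -0.051 for the list and 0.003 for all genes. Against LPS-primed BMDMs, 7 of 36 were called (19.4%), 3 higher and 4 lower, against 6.31% of all genes (3.6% higher and 2.71% lower), with a median of -0.211 against -0.014. With the replicate block these counts were 20, 9 higher and 11 lower, and 13, 3 higher and 10 lower, where the block called 47.6% and 18% of all genes. Under the study's limits 6 and 0 genes passed, against 8.04% and 0.681% of all genes, and at an adjusted p under 0.25 LPS-tolerant against LPS-primed BMDMs gave 14, against 22.2%. The genes higher than in LPS-primed BMDMs were Mdm2, Plk2 and Plk3, and the lower genes were Ccng2, Pml, Fas and Dram1.

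The change over the last 3 h was then compared with and without priming, as LPS-tolerant minus LPS-primed against LPS-stimulated minus unstimulated. This contrast was added after the data were seen. It was called for 16 of 36 p53 genes (44.4%), 8 higher and 8 lower, where 23.8% of all tested genes were called (10.5% higher and 13.3% lower). With the block 20 genes were called, against 36.2% of all genes, and under the study's limits 9, against 8.01%. Of the 12 genes called higher after the single dose, 8 were called for a smaller or opposite change after priming. These were Ddit4, Fas, Dram1, Mdm2, Cdkn1a, Apaf1, Aen and Trp53. Plk3 rose alike without and with priming, at 1.345 and 1.343 (difference -0.002, adjusted p = 0.999). Sertad1, Tigar and Rps27l also rose after the single dose, and their difference was not called (adjusted p = 0.0711, 0.376 and 0.732). Pml fell without and with priming, at -1.07 and -1.27 (adjusted p of the difference = 0.558). For Mdm2 the log2FC was 3.09 without priming and 0.49 with it (difference -2.60 ± 0.18, adjusted p = 2.25e-08), for Cdkn1a 1.85 and -0.31 (difference -2.16 ± 0.51, adjusted p = 0.00503) and for Trp53 1.28 and 0.14 (difference -1.14 ± 0.26, adjusted p = 0.00454). Fas rose without priming and fell with it, with a log2FC of 3.20 and -1.09 (difference -4.28 ± 0.36, adjusted p = 1.53e-07). Dram1 behaved alike, at 1.96 and -0.99 (difference -2.95 ± 0.39, adjusted p = 2.57e-05). Of the genes with a positive difference, Sesn1, Trp53inp1, Psrc1, Bbc3, Sesn2, Polk and Ppm1d had fallen after the single dose. Sesn1 had a log2FC of -5.36 without priming and -0.65 with it (difference 4.71 ± 0.46, adjusted p = 1.18e-06). Plk2 was the exception, with -0.14 and 1.46 (difference 1.60 ± 0.45, adjusted p = 0.0158). Sertad1, Ccng2, Mdm4 and Phlda3 were added by the block, at a difference of -1.22, -0.86, -0.82 and 2.61 (adjusted p = 0.0128, 0.0121, 0.0124 and 0.0163). Priming itself had already raised Ddit4, Fas, Dram1 and Mdm2 and lowered Sesn1, Psrc1, Bbc3, Ppm1d and Plk2, so their starting levels differed. The others of the 16 genes were not called after priming in the main fit. The part of the starting level in the difference was not tested. LPS-tolerant BMDMs received fresh medium with the second dose, so the effects of medium and dose cannot be told apart.

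**Figure D3:**
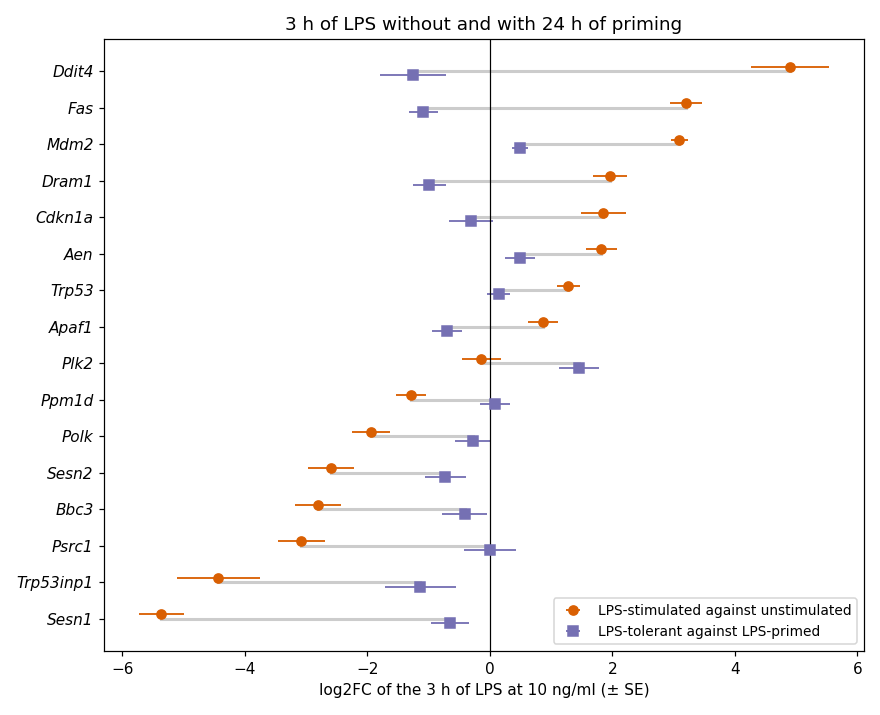
The log2FC over the last 3 h of LPS (horizontal axis, with its SE) for the 16 genes whose change differed with priming, as orange circles without priming and purple squares after 24 h of priming. The squares lie closer to 0 than the circles for every gene shown but Plk2, and on the other side of 0 for Ddit4, Fas, Dram1, Cdkn1a and Apaf1 among the genes that rose.

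Carboplatin was compared within LPS-primed and within LPS-tolerant BMDMs, to ask whether the p53 pathway responds to the drug in each LPS state. Without the replicate block, edgeR called no p53 gene in either state, and with it 2 in LPS-primed BMDMs, while most had a higher mean with the drug. In LPS-primed BMDMs, 31 of 36 genes had a log2FC above 0 (86.1%, against 51.6% of all tested genes) and the median was 0.272, against 0.010 for all genes. In LPS-tolerant BMDMs, 32 of 36 were above 0 (88.9%, against 51.3%) with a median of 0.217, against 0.007. The percentage of all genes called at an adjusted p under 0.05 was 0.372% and 0.425%. At an unadjusted p under 0.05, 7 p53 genes passed in LPS-primed BMDMs, all higher (19.4%, against 6.86% of all genes), and 0 in LPS-tolerant BMDMs (6.73% of all genes). DESeq2 called 1 and 0 genes, where it called 1.05% and 1.42% of all genes. Genes are not independent of each other, the list was chosen with earlier results of these data known, and no test was made over it.

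**Figure D4:**
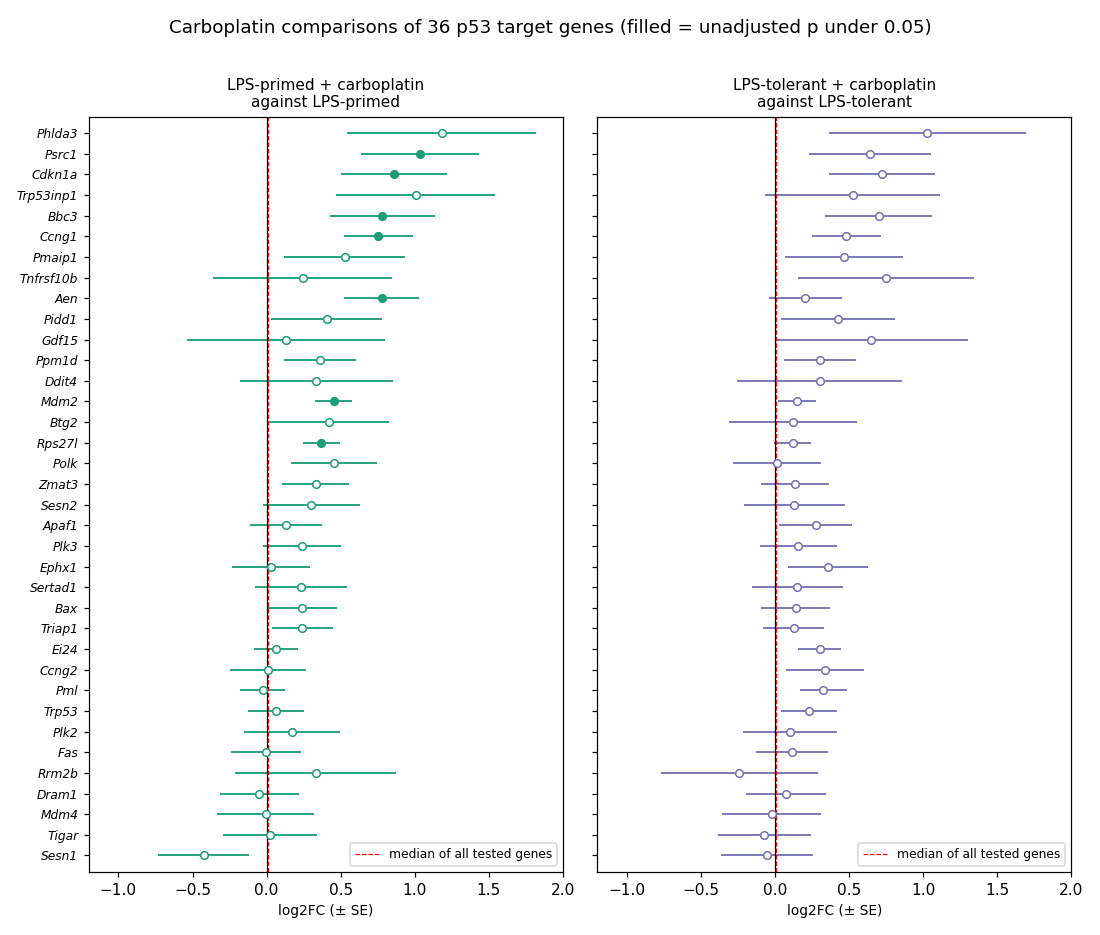
The log2FC of 36 genes with carboplatin (horizontal axis, with its SE) in LPS-primed and LPS-tolerant BMDMs, filled where the unadjusted p was under 0.05, with a dashed line at the median of all tested genes. Most points lie right of the line in both panels, 7 are filled on the left and 0 on the right, and Sesn1 is farthest to the left of 0 in LPS-primed BMDMs.

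Same-numbered samples were treated as pairs. In LPS-primed BMDMs 22 of 36 genes were higher with carboplatin in 3 of 3 pairs (61.1%, against 21.2% of all tested genes), and in LPS-tolerant BMDMs 16 of 36 (44.4%, against 21.9%). Over both states 11 genes were higher in 6 of 6 pairs, where 8.31% of all genes were, and 0 were lower in 6 of 6. These were Cdkn1a, Ccng1, Trp53inp1, Phlda3, Zmat3, Plk3, Bax, Bbc3, Triap1, Psrc1 and Ppm1d. Sesn1 was the gene that was lower in 3 of 3 pairs in LPS-primed BMDMs, with a log2FC of -0.42 ± 0.31 (adjusted p = 0.917). Groups did not overlap, with carboplatin higher, for 7 genes in LPS-primed BMDMs (5.2% of all genes) and 5 in LPS-tolerant BMDMs (5.25%), and with carboplatin lower for 0 in each state (7.68% and 6.12% of all genes).

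The normalized counts of Cdkn1a were 1134, 558 and 1047 in LPS-primed BMDMs and 2192, 977 and 1811 with carboplatin, and 934, 413 and 869 in LPS-tolerant BMDMs and 1462, 973 and 1212 with carboplatin. The sample of replicate 2 was the lowest in all 4 groups, and each replicate was higher with the drug. The log2FC was 0.86 ± 0.36 in LPS-primed (adjusted p = 0.592) and 0.72 ± 0.36 in LPS-tolerant BMDMs (adjusted p = 0.769). The replicate block gave an adjusted p of 0.0394 and 0.0661, at a log2FC of 0.85 and 0.77. Ccng1 had 502, 434 and 766 in LPS-primed BMDMs and 796, 944 and 1128 with carboplatin, and 433, 516 and 538 in LPS-tolerant BMDMs and 462, 808 and 807 with carboplatin. The drug-treated samples of the LPS-primed state lay above the untreated ones, while those of the LPS-tolerant state overlapped. Its log2FC was 0.75 ± 0.23 and 0.48 ± 0.23 (adjusted p = 0.309 and 0.754), and with the block the adjusted p was 0.0357 in LPS-primed and 0.261 in LPS-tolerant BMDMs. Thus the block called Cdkn1a and Ccng1 in LPS-primed BMDMs, where it called 1.77% of all genes, and no p53 gene in LPS-tolerant BMDMs, where it also called 1.77%. DESeq2 with the block called Cdkn1a in LPS-tolerant BMDMs too (adjusted p = 0.0186). Without the block, 1 gene (Mdm2) had an adjusted p under 0.25 in LPS-primed BMDMs, against 1.2% of all genes.

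Mdm2 had 1962, 1945 and 2504 normalized counts in LPS-primed BMDMs and 3010, 2682 and 3078 with carboplatin, and 2884, 2909 and 3213 and 3248, 3599 and 3155 in the LPS-tolerant state. The samples with carboplatin lay above those without in the LPS-primed state, and in the LPS-tolerant state replicate 3 was slightly lower with the drug. The log2FC was 0.45 ± 0.13 (adjusted p = 0.228, with DESeq2 0.0318) and 0.15 ± 0.13 (adjusted p = 1). Trp53 had 592, 512 and 677 normalized counts with carboplatin in the LPS-primed state and 789, 634 and 783 in the LPS-tolerant state, with a log2FC of 0.064 ± 0.19 and 0.23 ± 0.19 (adjusted p = 0.989 and 1).

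Of the other genes with an unadjusted p under 0.05 in LPS-primed BMDMs, Aen had 110.1, 87.7 and 98.5 normalized counts without and 217, 157 and 135 with carboplatin. Rps27l had 780.0, 666 and 754 without and 919.7, 951 and 972 with the drug. Psrc1 had 9.53, 12.5 and 23.4 without and 32.4, 28.2 and 34.2 with the drug. In these genes, as in Bbc3, all drug-treated samples were above all untreated ones. Their log2FC was 0.78 ± 0.25, 0.37 ± 0.13 and 1.04 ± 0.40, and that of Bbc3 0.78 ± 0.35 (adjusted p = 0.359, 0.401, 0.523 and 0.683). In LPS-tolerant BMDMs the corresponding values were 0.20 ± 0.25, 0.12 ± 0.13, 0.64 ± 0.41 and 0.70 ± 0.36 (adjusted p = 1, 1, 0.923 and 0.806). The largest log2FC in both states was that of Phlda3, at 1.18 ± 0.64 and 1.03 ± 0.66 (adjusted p = 0.803 and 0.929), a gene with 6.04 to 50.8 normalized counts in the untreated samples. DESeq2 with the block called Rps27l in LPS-primed BMDMs (adjusted p = 0.0345), where it called 3.35% of all genes. Averaged over both states it called Rps27l, Bbc3 and Phlda3 (adjusted p = 0.0385, 0.0356 and 0.0212), against 7.59% of all genes.

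**Figure D5:**
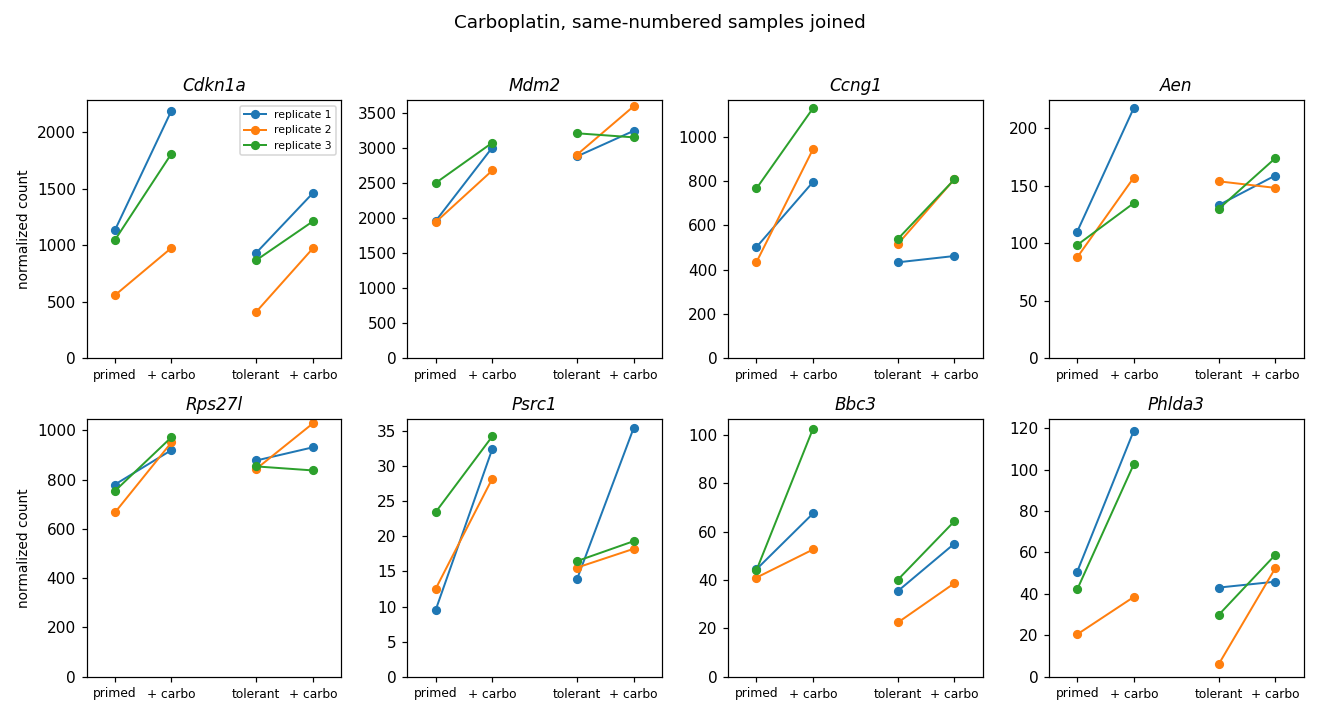
Normalized counts of 8 genes in LPS-primed and LPS-tolerant BMDMs without and with carboplatin, with lines that join samples of the same replicate number. All 3 lines rise in the LPS-primed state for each gene shown, and in the LPS-tolerant state all 3 rise for Cdkn1a, Ccng1, Psrc1, Bbc3 and Phlda3.

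Averaged over both LPS states, 33 of 36 genes had a log2FC above 0 (91.7%, against 52.3% of all genes), with a median of 0.225 against 0.013. In edgeR without the block 0 of them were called, where 1.99% of all genes were, and 8 had an unadjusted p under 0.05, against 11.9% of all genes. The lowest adjusted p values were those of Ccng1 (log2FC = 0.62 ± 0.17, adjusted p = 0.0665), Mdm2 (log2FC = 0.30 ± 0.090, adjusted p = 0.111) and Cdkn1a (log2FC = 0.79 ± 0.25, adjusted p = 0.153). At the limit of 0.25 that the study set for the drug, and without its fold limit, 7 genes passed, namely these and Psrc1, Bbc3, Aen and Rps27l, where 5.95% of all genes did. With the replicate block Cdkn1a, Ccng1 and Mdm2 were called (adjusted p = 0.00189, 0.00628 and 0.0307), where 6.24% of all genes were. Ccng1 also passed without LPS-primed replicate 3 (adjusted p = 0.0211) or LPS-tolerant + carboplatin replicate 1 (adjusted p = 0.0188), and in DESeq2 Ccng1 and Mdm2 passed (adjusted p = 0.017 and 0.0266). By role, the mean log2FC was above 0 for 10 of 10 tested apoptosis genes, 8 of 8 cell cycle genes, 2 of 2 receptors, 4 of 4 genes of repair and nuclear bodies, 4 of 5 regulators and 5 of 7 metabolic genes.

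The difference between the drug's effect in the LPS-tolerant and the LPS-primed state was called for 0 of 36 p53 genes, with or without the block, and for 0 of all tested genes (0%). An unadjusted p under 0.05 was reached by 0 p53 genes and by 1.16% of all genes in edgeR. It lay above 0 for 12 of 36 p53 genes, against 48.9% of all genes, with a median of -0.081. Values on either side of the threshold in the 2 states therefore do not show that the states differ. The difference in log2FC was -0.14 ± 0.51 for Cdkn1a, -0.30 ± 0.18 for Mdm2 and -0.57 ± 0.35 for Aen (unadjusted p = 0.784, 0.113 and 0.124).

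Other lists of the pathway were read beside the 38 genes. Of 18 cell cycle genes listed as lowered through p21, 9 were called with carboplatin over both states, all lower, against 1.99% of all genes. With the replicate block 13 were called, against 6.24% of all genes. Whether p21 lowered them here was not tested. Ube2c, Plk1 and Ccnb1, which drive mitosis, had a log2FC of -2.55 ± 0.33, -1.94 ± 0.26 and -1.79 ± 0.29 (adjusted p = 0.000279, 3e-04 and 0.00233). In LPS-tolerant BMDMs 3 of 18 were called, all lower, and the block called 8. The list's median log2FC there was -1.30. In LPS-primed BMDMs 0 were called, and 4 with the block, all lower, with 12 at an unadjusted p under 0.05 and a median of -0.999. In each state 0.372% to 0.425% of all genes were called without the block and 1.77% with it. The same list had 15 of 18 genes lower after priming, where 13.1% of all genes were, with Cdc20 at -4.30 ± 0.33 (adjusted p = 4.58e-08), and 5 lower after the single dose, against 26.9%. Of 34 other tested p53 targets 0 were called with carboplatin in either state. Of these 34, 19 were above 0 in the LPS-primed and 21 in the LPS-tolerant state, where 51.6% and 51.3% of all genes were. The 36 p53 genes had a median log2FC of 0.272 and 0.217, and these 34 had 0.043 and 0.118. At an unadjusted p under 0.05, 2 passed in the LPS-primed and 9 in the LPS-tolerant state, against 6.86% and 6.73% of all genes, and over both states the block called 4 higher and 1 lower. Shares of all genes called, for this list and the next ones, were 51.2% after the single dose and 25.2% after priming. After the single dose 24 of these 34 were called, 8 higher and 16 lower, among them the repair factors Ercc5 and Xpc (-1.79 ± 0.21 and -2.03 ± 0.24, adjusted p = 2.75e-06 and 3.37e-06), and after priming 19, 8 higher and 11 lower, among them Ckap2, a spindle protein (-3.77 ± 0.37, adjusted p = 9.47e-07). Of 21 tested damage kinases and p53 modifiers, 0 were called with carboplatin in either state, 9 after the single dose, with Chek2, a checkpoint kinase, at -2.94 ± 0.44 (adjusted p = 3.3e-05), and 3 after priming. Of 9 tested targets of ATF4, a stress factor that shares targets such as Ddit4 and Sesn2 with p53, 0 were called with carboplatin, 5 after the single dose, 3 higher and 2 lower, and 4 after priming, 3 higher and 1 lower.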

How the data were processed

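The deposited values were raw counts of read pairs per gene symbol, 1 table for each of 18 BMDM samples. The authors made stranded mRNA libraries, sequenced them in pairs, used HISAT2 for alignment to GRCm39 and HTSeq for counting; tool versions, annotation and strand option are not given in the sources used here. Reads given to no gene (41.5% to 46.9% of each table's total) were left out. Here edgeR 4.0.16 in R 4.3.3 was fitted to all 18 samples with TMM factors, and its quasi-likelihood test was applied to the 11305 genes that passed filterByExpr (minimum count 10, minimum total 15). A gene was called at a Benjamini-Hochberg adjusted p under 0.05, two-sided, over all these genes. The SE of a log2FC was derived from its F value. A normalized count is a count rescaled from its sample's TMM-scaled library size to their mean, 9307681. GENCODE M39 gave positions and transcript lengths on GRCm39.

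The 38 genes and the other lists were chosen with earlier results of these data known. Values per sample are given for Trp53, Mdm2, Cdkn1a, genes called with carboplatin, and up to 5 called genes in each direction with the largest fold in each LPS comparison; of the other lists up to 3 called genes with the smallest p may be named. Aen and Rps27l were given in addition with carboplatin. Same-numbered samples deviated together from their group means, with a correlation of 0.061 to 0.541 (mean 0.324) over 45 pairs, 44 of them over 0.1, and all 18 pairs within the 2-group comparisons were over 0.1. For replicate 2 of LPS-stimulated and unstimulated BMDMs a differently numbered pair correlated more (0.237) than the same-numbered one (0.224), and in the other pairs the same number was highest. The replicate number was therefore taken as pairing the samples, from the labels' numbers and this check. The main fit left this pairing out, and only the fits with the replicate block used it. Alternatives were RLE size factors, library size alone, other count filters, DESeq2 1.42.0, the replicate block, the compared samples alone, other call limits and leaving out each sample. The study's methods name 3 biological replicates, and no source used here says whether they came from separate mice, so the spread between them may be partly technical. The treatment protocol in the labels names carboplatin after LPS, and the study's methods place it before the priming dose.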

Additional observations from a re-analysis of the deposited data

Results flagged for a closer look

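The change over 3 h of LPS differed between primed and unprimed BMDMs for 16 of the 36 tested p53 genes, by a test of the difference itself (edgeR, adjusted p under 0.05, contrast added after the data were seen), and each is listed for a closer look. The difference in log2FC, with priming minus without, was below 0 for Ddit4 (-6.16, adjusted p = 3.49e-05), Fas (-4.28, adjusted p = 1.53e-07), Dram1 (-2.95, adjusted p = 2.57e-05), Mdm2 (-2.6, adjusted p = 2.25e-08), Cdkn1a (-2.16, adjusted p = 0.00503), Apaf1 (-1.58, adjusted p = 0.00309), Aen (-1.33, adjusted p = 0.0108) and Trp53 (-1.14, adjusted p = 0.00454). It was above 0 for Sesn1 (4.71, adjusted p = 1.18e-06), Trp53inp1 (3.3, adjusted p = 0.0119), Psrc1 (3.08, adjusted p = 0.00064), Bbc3 (2.4, adjusted p = 0.00265), Sesn2 (1.86, adjusted p = 0.0111), Polk (1.67, adjusted p = 0.0087), Plk2 (1.6, adjusted p = 0.0158) and Ppm1d (1.36, adjusted p = 0.00778). With 3 samples in each group, single samples were not tested for standing apart from their group.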

How the results depend on the processing

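The counts of called p53 genes changed most with the limits and the pairing. Under the study's own limits (log2FC past 2, and an adjusted p under 0.05 for LPS or 0.25 for carboplatin) the LPS comparisons gave 7 genes for LPS-primed and 9 for LPS-stimulated against unstimulated, 6 for LPS-tolerant against LPS-stimulated, 0 against LPS-primed and 9 for the contrast over 3 h. LPS-tolerant against LPS-primed gave 13 genes with the replicate block, 13 with DESeq2 and the block, and 14 at an adjusted p under 0.25. Carboplatin in LPS-primed BMDMs gave 1 gene with DESeq2, 4 with DESeq2 and the block, 2 with the replicate block and 1 at an adjusted p under 0.25, and in LPS-tolerant BMDMs 1 with DESeq2 and the block. Over both states it gave 2 genes with DESeq2, 6 with DESeq2 and the block, 3 with the replicate block and 7 at an adjusted p under 0.25. Of all genes with an adjusted p, DESeq2 called 1.05% in LPS-primed BMDMs and 3.38% over both states, and with the block 3.35% in LPS-primed BMDMs, 3.34% in LPS-tolerant BMDMs, 7.59% over both and 19.6% for LPS-tolerant against LPS-primed. DESeq2 with the block was added after the data were seen. Beyond the calls given in the report, the replicate block changed no other call of these genes and none was lost with it.

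Leaving out 1 sample at a time gave 11 to 14 genes for LPS-primed and 23 to 25 for LPS-stimulated against unstimulated, 14 to 17 for LPS-tolerant against LPS-stimulated, and 4 to 6 against LPS-primed, with 4 without LPS-primed replicate 2 or LPS-tolerant replicate 2. It gave 0 for carboplatin in each state, 0 to 1 over both states, 0 for the difference between the states and 16 to 18 for the contrast over 3 h. With library size alone, the median log2FC of all genes shifted by -0.237 for LPS-primed and -0.337 for LPS-stimulated against unstimulated. For the contrast over 3 h it shifted by 0.238. Rps27l after the single dose then had a log2FC of -0.006. Library size alone also called Triap1 and Pidd1 after priming (adjusted p = 0.0104 and 0.0323). After the single dose it called Ccng2 and Pmaip1 in addition (adjusted p = 0.0114 and 0.0266). Fitting only the compared samples ended the calls of Ei24, Rps27l and Pidd1 after the single dose (adjusted p = 0.169, 0.0906 and 0.0525) and of Mdm2 and Fas in LPS-tolerant against LPS-primed BMDMs (adjusted p = 0.104 and 0.0599). Without a filter on low counts Ei24, Rps27l and Mdm2 lost the same calls (adjusted p = 0.0688, 0.0785 and 0.0572), and with at least 10 counts in every sample Rps27l did (adjusted p = 0.0679). Over all tested genes, the block raised the calls from 2847 to 4367 for LPS-primed against unstimulated, 713 to 2034 for LPS-tolerant against LPS-primed, 42 to 200 and 48 to 200 for carboplatin in the LPS-primed and LPS-tolerant states, 225 to 705 over both and 2691 to 4091 for the contrast over 3 h. The causes of these changes were not tested. Depth left Eda2r and Perp without a test.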
